A study of Mus musculus with 2 samples.

Results

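RNA levels of 10 genes of liver iron balance were read from an RNAseq table, which holds no measure of iron or of protein. The genes were taken by their symbols and were all found, out of 35275 genes listed. They are the hepcidin genes *Hamp* and *Hamp2*, *Bmp6* and *Id1* of the pathway that controls hepcidin, transferrin (*Trf*), the transferrin receptors *Tfrc* and *Tfr2*, the ferritin chains *Fth1* and *Ftl1*, and ferroportin (*Slc40a1*). The livers came from male FVB mice of 2 groups, both carrying albumin-Cre and a Rosa26 rtTA allele unlocked by it, and both carrying human SREBP1a driven by the rat *PEPCK* promoter, which makes the liver fatty. S1a/Ctrl mice had these alleles only, and S1a/ETP mice also carried TRE-ETP, which makes hepatocytes produce endotrophin (ETP), a cleaved fragment of collagen VI, when doxycycline is given. All mice ate 200 mg/kg doxycycline for 10 months from 6 weeks of age and were 12 months old by the labels. Each group is 1 library, made of the pooled RNA of 3 animals. The spread between mice is therefore unknown, no test between the groups was possible and no p-value is given.

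Iron enters the plasma through ferroportin, travels on transferrin and is taken into cells by transferrin receptors, and ferritin cages hold what is not used. Hepcidin, a peptide hormone of hepatocytes, binds ferroportin and has it degraded, so that less iron leaves macrophages, gut cells and hepatocytes. Hepcidin transcription is driven by BMP6 and BMP2 from sinusoidal endothelial cells through SMAD proteins, and by IL-6 through STAT3 in inflammation.

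Both hepcidin genes were lower in the S1a/ETP pool, *Hamp* by 1.54-fold and *Hamp2* by 1.98-fold. Transferrin and ferroportin were lower too, with log2 ratios of −0.30 and −0.38. Ferritin heavy chain was 1.31-fold higher, ferritin light chain 1.08-fold higher, and the receptor *Tfr2* 1.12-fold higher. *Bmp6* was 1.51-fold higher on few reads while *Id1* was 1.29-fold lower, and *Tfrc* differed by less than its counting error. None of the 10 reached the 2-fold size that the study used, which 6.42% of all genes passed as higher and 6.25% as lower.

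The hepcidin genes lie 18.189 kb apart on chromosome 7, and the proximal promoters of both are shown because both genes were lower in the same library, with the BMP and STAT elements that take in the signals named above. RefSeq promoter windows of GRCm38.p6, from 250 bases before to 50 after each gene's start, matched 7 of the 10 genes in 11 windows. The *Hamp* stretch is chr7:30944093-30944163 and the *Hamp2* stretch chr7:30924242-30924312, both on the minus strand and read 5′ to 3′. Capitals mark the core of the BMP-responsive element and the STAT site.
Hamp: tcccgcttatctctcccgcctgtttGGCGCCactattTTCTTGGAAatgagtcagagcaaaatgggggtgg
Hamp2: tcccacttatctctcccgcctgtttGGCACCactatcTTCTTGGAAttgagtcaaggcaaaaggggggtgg
The STAT site was the same in both genes. The BMP element differed by G4A, counted from 1 at its 5′ end with the *Hamp* base first, so only *Hamp* matched its core. Over the whole windows 92.9% of 297 aligned bases were identical.

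GGCGCC, which reads the same on both strands, occurred in 11.9% of 32851 promoter windows, among them that of *Hamp* and 1 of *Tfrc*. The STAT motif TTCNNNGAA, also the same on both strands, occurred in 8.30%, and among the iron genes in the windows of *Hamp* and *Hamp2*. The core of the antioxidant response element, TGACNNNGC or GCNNNGTCA on the other strand, occurred in 12.4%, and among the iron genes in that of *Bmp6*. None of the 3 motifs was in the windows of *Fth1*, *Ftl1* or *Tfr2*. A match is a description of these letters and not of a bound site.

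Ferritin, ferroportin and transferrin receptor RNAs also carry iron-responsive elements, hairpins that bind the iron regulatory proteins when iron is low. In a 5′ UTR the bound hairpin blocks translation, and in the 3′ UTR of *Tfrc* it protects the RNA. The pattern searched was C, 5 bases, the loop CAGTGN and 5 bases that pair with the first, with G and U pairing allowed. It was found on the transcript strand of GENCODE M21, in the 5′ UTR of 31 and the 3′ UTR of 129 of 21901 coding genes, or 0.142% and 0.589%. The hairpins of the iron genes are shown with the loop in capitals, since they place the genes in the groups that iron steers in opposite directions.
Fth1 5′ UTR, chr19:9982732-9982760, plus strand: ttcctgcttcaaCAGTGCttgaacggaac
Ftl1 5′ UTR, chr7:45459779-45459807, minus strand: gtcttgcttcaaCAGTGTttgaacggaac
Slc40a1 5′ UTR, chr1:45925465-45925493, minus strand: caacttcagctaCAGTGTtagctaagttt
Tfrc 3′ UTR, chr16:32631219-32631247, plus strand: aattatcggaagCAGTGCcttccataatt
Tfrc 3′ UTR, chr16:32631598-32631626, plus strand: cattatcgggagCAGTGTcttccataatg
Tfrc 3′ UTR, chr16:32631663-32631691, plus strand: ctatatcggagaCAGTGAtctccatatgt
Tfrc 3′ UTR, chr16:32631710-32631738, plus strand: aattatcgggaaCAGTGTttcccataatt
*Tfrc* held 4 hairpins of this pattern and each of the other 3 genes held 1. Of the other genes listed for the study of iron and blood, *Alas2* also held one in its 5′ UTR. A hairpin of another form would be missed, so a gene with no match is not shown to lack one.

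Levels are given as FPKM, fragments scaled to gene length and library depth, which allows genes to be compared within a library. The table gave whole reads for 100% of values within 0.01 reads, with 19245078 reads in the S1a/Ctrl library and 14538808 in the S1a/ETP library. Square brackets hold 95% exact intervals of these reads, which cover counting error only, not the spread between mice or between library preparations. Log2 ratios set the S1a/ETP level over the S1a/Ctrl level, each with 0.1 FPKM added, and have Clopper-Pearson intervals carried to that scale.

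The liver markers *Alb*, at 31534 and 31035 FPKM, and the rest of a list of 8 hepatocyte genes were present in both libraries. Of the hepatocyte list, 7 of 8 had an interval below 0, with a median log2 ratio of −0.24. Over all genes with mean levels of at least 0.1 FPKM, 22.4% had intervals above 0 and 17.5% below. Over those of at least 10 FPKM the shares were 31.4% and 30.4%. The pools also differed in other cells. Over 8 skeletal muscle genes S1a/Ctrl had 2232 reads against 9 in S1a/ETP, with *Tnnt3*, a fast muscle troponin, at 475 and 0. Neutrophil genes had 79 and 3315 reads over 10 genes, with *S100a9* at 31 and 1195, and all 9 measured genes of dividing cells had intervals above 0. Stellate cell and fibroblast genes had a median log2 ratio of 0.43 over 8, none past 2-fold, with 5 intervals above 0 and 1 below. The collagen gene *Col1a1* was at 0.97 [0.76, 1.19], an interval that includes the 2-fold size. *Dcn*, the most abundant of the 8, was at 0.02 [−0.05, 0.10]. In whole liver, fewer cells of a type and less RNA per cell cannot be told apart, and a transgene's reads are not listed apart from those of the mouse gene.

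*Ftl1* was the most abundant of the iron genes in both libraries, at 4901 FPKM [4869, 4933] in S1a/Ctrl against 5316 [5278, 5354] in S1a/ETP, rank 13 and rank 11 of all genes. *Fth1* followed at 1755 and 2296 FPKM and *Hamp* at 1442 and 934. In S1a/Ctrl the next were *Hamp2*, *Trf*, *Tfr2*, *Slc40a1*, *Id1*, *Tfrc* and *Bmp6*, and no 2 neighbors in that order had overlapping intervals. In S1a/ETP *Hamp2* came after *Trf*, and its interval overlapped those of *Trf* and *Tfr2*. The intervals of *Id1* and *Tfrc* overlapped there as well. Together the 10 genes took 0.801% of the reads of S1a/Ctrl and 0.854% of those of S1a/ETP.

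**Figure D1:**
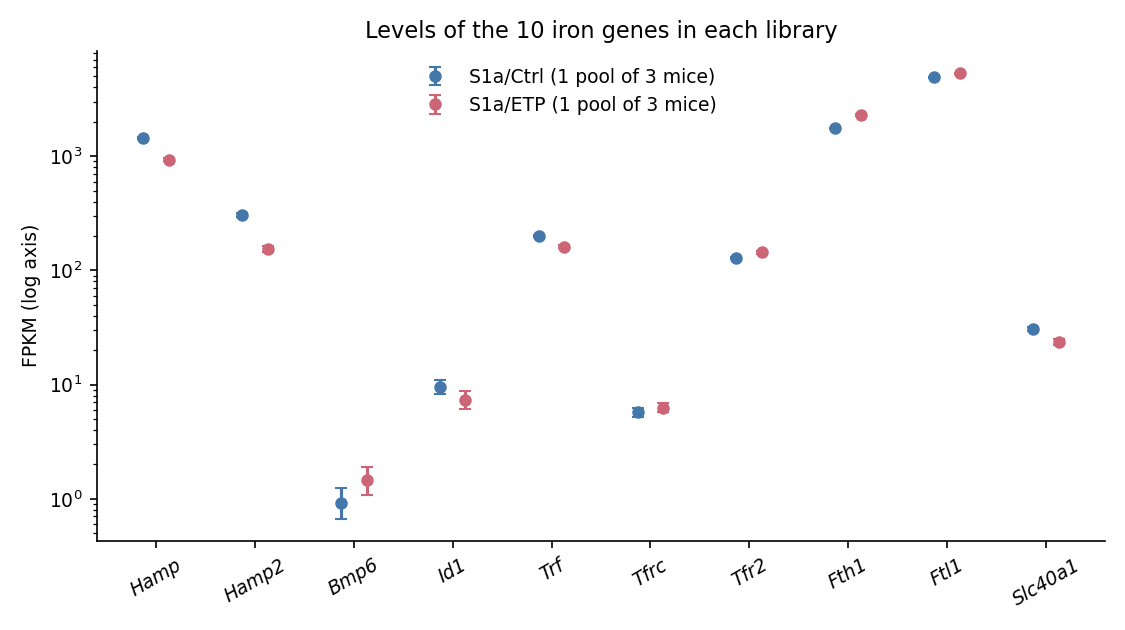
FPKM on a log axis for each iron gene in the S1a/Ctrl library (blue) and the S1a/ETP library (red), 1 pool of 3 mice each, with 95% exact Poisson intervals of the reads. Levels ran from 0.927 FPKM for *Bmp6* to 5316 for *Ftl1*, and the hepcidin pair shows the widest gap between the libraries among the abundant genes.

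*Hamp*, which encodes the circulating hormone, lies on chromosome 7 from 30942371 to 30944017 and *Hamp2* from 30922372 to 30924181. *Hamp* was at 1442 FPKM [1415, 1469] in S1a/Ctrl, on 10875 reads, against 934 [909, 960] in S1a/ETP, on 5324 reads. Its log2 ratio was −0.63 [−0.67, −0.58], and its rank among all genes went from 42 to 63. *Hamp2*, whose peptide does not have the same effect on iron, was at 305 FPKM [293, 317] on 2561 reads and at 154 [145, 164] on 979 reads. The log2 ratio of *Hamp2* was −0.98 [−1.09, −0.88], an interval that includes the 2-fold size. S1a/ETP was the low library for both genes, by more than counting error.

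Of the 4228 genes with mean levels of at least 10 FPKM, 2.41% had a lower log2 ratio than *Hamp* and 1.06% a lower one than *Hamp2*. The copies differed in the size of this gap. *Hamp* was 4.73 times *Hamp2* in S1a/Ctrl against 6.06 times in S1a/ETP, so the log2 ratio of *Hamp* exceeded that of *Hamp2* by 0.36 [0.24, 0.47]. *Hamp2* made up 17.4% of the summed hepcidin FPKM in S1a/Ctrl against 14.2% in S1a/ETP. With the reads of both summed, 13436 and 6303, the log2 ratio was −0.69 [−0.73, −0.64]. The transcripts of the copies were identical at 94.6% of 410 aligned bases. Of the 50-base stretches of *Hamp*, 16.6% occur unchanged in *Hamp2*, none of 100 bases does, and how the reads were shared out between the copies was not tested.

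*Bmp6*, the ligand that reports liver iron to hepatocytes, lies on chromosome 13 from 38345716 to 38499728 and was the least abundant of the 10. It was at 0.927 FPKM [0.671, 1.25] in S1a/Ctrl, on 43 reads, against 1.46 [1.08, 1.91] in S1a/ETP, on 51 reads. Its log2 ratio was 0.60 [0.03, 1.16], so the interval nearly reached 0. With 1 FPKM added in place of 0.1 the log2 ratio was 0.35. Of 8 genes of sinusoidal endothelial cells, which make most of this ligand, all had intervals that spanned 0, as did 9640 of all 16042 genes. The 8 had a median log2 ratio of 0.02, with the lectin gene *Clec4g* at 0.04 [−0.15, 0.23] and the hyaluronan receptor gene *Lyve1* at −0.29 [−0.78, 0.19].

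*Id1*, an inhibitor of differentiation that SMAD proteins induce, lies on chromosome 2 from 152736251 to 152737410. It was at 9.54 FPKM [8.30, 10.9] on 213 reads in S1a/Ctrl against 7.35 [6.12, 8.77] on 124 reads in S1a/ETP, for a log2 ratio of −0.37 [−0.70, −0.05]. *Id1* and both hepcidin genes were lower and *Bmp6* was higher in the same library. A wider list of 7 genes that BMP signaling induces had a median log2 ratio of 0.01. It held 2 intervals above 0 and none below, against 22.4% and 17.5% of all genes. *Id4*, a relative of *Id1*, was 2-fold higher on 7 and 16 reads, at 1.26 [0.19, 2.25], and the most abundant, *Id2*, was at 0.07 [−0.04, 0.17]. Named after their values were seen, the inhibitory SMAD gene *Smad6* was at 0.37 [0.03, 0.71], and *Smad7* and *Atoh8*, which hepatocytes induce with hepcidin, were at −0.02 [−0.32, 0.28] and −0.01 [−0.36, 0.34].

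Other genes that set hepcidin through BMP signals were measured for 13 of 14. None was past 2-fold, 3 had an interval above 0 and none below, and their median log2 ratio was 0.10. Of all genes, 22.4% had intervals above 0 and 17.5% below, and 6.42% and 6.25% were 2-fold higher and lower. *Hjv* (listed as *Hfe2*), the hemojuvelin co-receptor of hepatocytes, was at 45.1 and 61.0 FPKM, which is a log2 ratio of 0.44 [0.34, 0.53]. *Bmpr1a*, a BMP type I receptor, was at 0.35 [0.18, 0.53]. The third interval above 0 was that of the signal transducer *Smad1*, at 0.35 [0.11, 0.58], which was singled out after its value was seen. The ligand gene *Bmp2*, also named after its value was seen, was at 2.57 and 2.69 FPKM on 176 and 139 reads. Its log2 ratio was 0.06 [−0.26, 0.38]. *Tmprss6*, the protease that cleaves hemojuvelin and so restrains hepcidin, was the most abundant at 146 and 150 FPKM, which is a log2 ratio of 0.04 [−0.01, 0.08]. *Erfe* (listed as *Fam132b*), the erythroblast hormone that lowers hepcidin, had 0 and 3 reads, no more than the limit of 3 reads that a count of 0 allows.

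The inflammatory input was read from 8 genes, of which 7 had enough signal. *Il6* itself had no read in either library, which allows up to 0.143 FPKM in S1a/Ctrl and up to 0.190 in S1a/ETP. *Stat3*, the factor that IL-6 activates, was at 11.3 FPKM in S1a/Ctrl against 17.6 in S1a/ETP, for a log2 ratio of 0.64 [0.53, 0.74]. *Il6st*, the shared signaling chain of the receptor, was at 0.15 [0.07, 0.23], and the activin B subunit gene *Inhbb* at −0.50 [−1.10, 0.10] on 50 and 25 reads. The list held 1 interval below 0, that of the receptor gene *Il6ra* at −0.37 [−0.58, −0.17], and 3 above, the third being the feedback inhibitor *Socs3* at 0.37 [0.01, 0.73]. Of all genes, 17.5% had intervals below 0 and 22.4% above. *Il6ra* and *Socs3* were named after their values were seen.

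Acute phase genes, many of which IL-6 also induces in hepatocytes, were mostly higher where hepcidin was lower. Of 22 such genes, 19 had intervals above 0 and 1 below, 5 were at least 2-fold higher and none 2-fold lower, with a median log2 ratio of 0.51. Over all genes, 22.4% had intervals above 0 and 17.5% below, and 6.42% and 6.25% were 2-fold higher and lower. Among those with mean levels of at least 10 FPKM the shares were 31.4%, 30.4%, 0.71% and 1.04%. The 5 were the serum amyloid genes *Saa1* and *Saa2*, the orosomucoid gene *Orm2*, the siderophore-binding *Lcn2* and the secreted glycoprotein gene *Lrg1*, at 1.60 to 2.96. The paper counts *Lcn2* among the genes that neutrophils mainly express, and the part of neutrophils in its level was not tested. *Hpx*, the most abundant and the heme carrier of plasma, was at 0.40 [0.39, 0.42]. The ratios of *Hamp* and *Hamp2* lay below the lowest of the list, that of *Saa4* at −0.46 [−0.53, −0.40], a gene named after its value was seen.

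**Figure D2:**
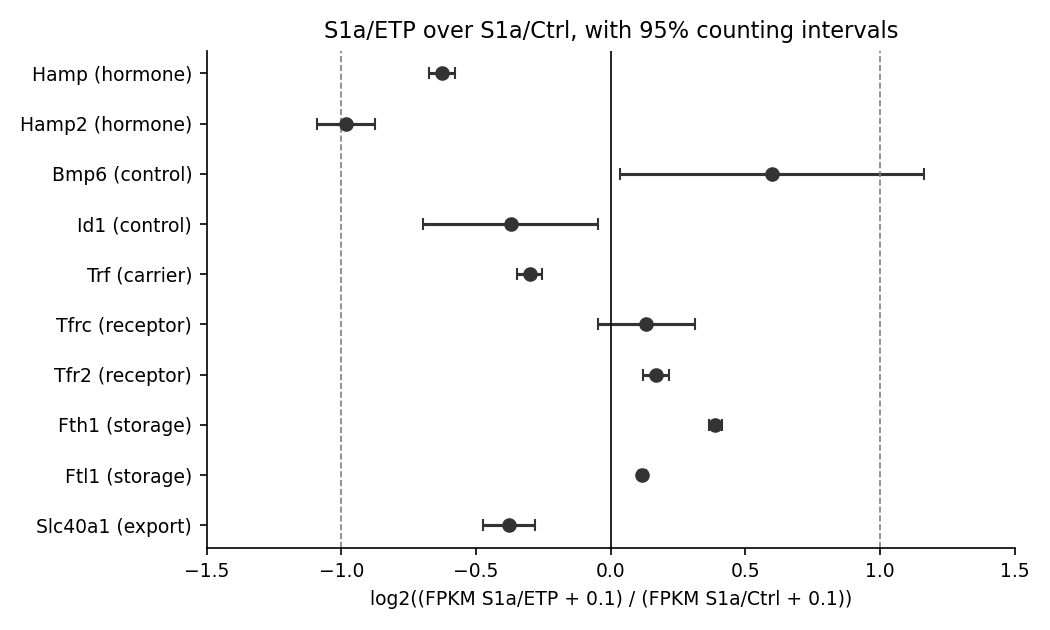
Log2 ratio of S1a/ETP over S1a/Ctrl for the 10 iron genes with their roles, with bars for the 95% counting interval and dashed lines at 2-fold. The 5 genes left of 0 are *Hamp*, *Hamp2*, *Id1*, *Trf* and *Slc40a1*, and the bar of *Tfrc* crosses 0.

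*Trf*, the plasma iron carrier that hepatocytes secrete, lies on chromosome 9 from 103204001 to 103230444. It was at 199 FPKM [195, 203] on 9836 reads in S1a/Ctrl against 161 [157, 165] on 6032 reads in S1a/ETP, for a log2 ratio of −0.30 [−0.35, −0.25]. It was lower in S1a/ETP, close to the −0.24 median of the hepatocyte list, in which *Alb* was at −0.02 [−0.03, −0.02] and the cytochrome gene *Cyp2e1* at −1.04 [−1.05, −1.02]. *Trf* is the only one of the 10 whose place in the table overlaps another row, *Gm20425* on the same strand. That row overlaps *Trf* from 103204001 to 103230307, had 0 reads in both libraries and shares 77.3% of the 100-base stretches of the *Trf* transcript. How reads in the shared part were counted was not tested, so the level of *Trf* and its order among the iron genes are less certain.

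The receptors for transferrin differed little between the libraries. *Tfrc*, which imports transferrin iron in most cells and most of all in dividing cells and red cell precursors, was at 5.73 FPKM [5.25, 6.23] on 539 reads in S1a/Ctrl against 6.29 [5.72, 6.90] on 447 reads in S1a/ETP. *Tfrc* lies on chromosome 16 from 32608920 to 32632794, and *Tfr2* on chromosome 5 from 137569851 to 137587481. The log2 ratio of *Tfrc* was 0.13 [−0.05, 0.31], the only one of the 10 whose interval held 0, and 0.20 with TPM in place of FPKM. *Tfr2*, the hepatocyte receptor that senses loaded transferrin for hepcidin control, was at 128 FPKM [125, 131] and 144 [140, 148], on 7218 and 6128 reads. Its log2 ratio was 0.17 [0.12, 0.22]. *Tfr2* was 22.4 times *Tfrc* in S1a/Ctrl against 22.9 times in S1a/ETP, and the log2 ratios of the receptors differed by 0.03 [−0.15, 0.22].

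Genes of the cells that use *Tfrc* most differed in both directions. Of 9 measured genes of dividing cells, 8 were at least 2-fold higher, against 6.42% of all genes. The replication clamp gene *Pcna*, the most abundant of the 9, was at 0.49 [0.32, 0.65]. Aurora kinase B (*Aurkb*) was at 2.55 [1.69, 3.35]. Of 9 measured erythroid genes, 6 had intervals below 0 and 1 above, against 17.5% and 22.4% of all genes, and the median log2 ratio was −0.49. Adding 1 FPKM in place of 0.1 gave −0.30, and taking all 12 listed genes with no minimum level gave −0.29. *Klf1*, the erythroid transcription factor gene, was at −1.46 [−2.40, −0.54] on 38 and 9 reads. The beta globin gene *Hbb-bs*, the most abundant, was at −0.19 [−0.23, −0.15], with near-identical copies that can share its reads. What these cells contributed to the level of *Tfrc* was not tested.

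Ferritin RNA was higher in S1a/ETP, and the heavy chain more so than the light chain. *Fth1*, the ferroxidase subunit, lies on chromosome 19 from 9982703 to 9985092. It was at 1755 FPKM [1735, 1775] on 29242 reads in S1a/Ctrl against 2296 [2269, 2322] on 28906 reads in S1a/ETP, for a log2 ratio of 0.39 [0.36, 0.41]. Of the genes with mean levels of at least 10 FPKM, 91.9% had a lower ratio. *Ftl1*, the subunit that helps the iron core form, lies on chromosome 7 from 45457944 to 45459884, with 91301 reads, then 74814, and had a log2 ratio of 0.12 [0.10, 0.13], or 0.19 with TPM.

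The chains stood in another proportion in each library. *Ftl1* was 2.79 times *Fth1* in S1a/Ctrl against 2.32 times in S1a/ETP, a difference of −0.27 [−0.30, −0.24] in log2 ratio. *Fth1* made up 26.4% and 30.2% of the summed FPKM. Reads of both chains together took 0.626% of S1a/Ctrl and 0.713% of S1a/ETP, a log2 ratio of 0.19 [0.18, 0.20]. Ferritin has many processed copies in the genome. Of the 100-base stretches of *Ftl1*, 60.4% occur unchanged in 4 other annotated genes, against 0.964% in 1 for *Fth1*, so the level of *Ftl1* is less certain. Of the 15 annotated genes that share 50-base stretches with *Ftl1*, not all were listed by that name with FPKM values. Among those that were, *Gm15590* had the most reads, 240 and 216. *Ftl2*, listed as a pseudogene, had 1 and 0, and *Fthl17* and *Fth-ps2* had none in either library.

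*Slc40a1*, the only known iron exporter of cells, lies on chromosome 1 from 45908068 to 45926523. Ferroportin RNA was at 30.6 FPKM [29.4, 31.9] on 2314 reads in S1a/Ctrl against 23.6 [22.3, 24.8] on 1345 reads in S1a/ETP, for a log2 ratio of −0.38 [−0.47, −0.28]. Hepcidin acts on the ferroportin protein, which was not measured, and both RNAs were lower in the same library. *Hamp* was 47.1 times *Slc40a1* in S1a/Ctrl against 39.7 times in S1a/ETP, a difference of −0.25 [−0.36, −0.14]. Ferroportin is abundant in Kupffer cells, the macrophages of the liver, whose genes were higher where it was lower. All 10 on their list had a higher value in S1a/ETP, as did 8541 of all 16042 genes. Of the 10, 9 had an interval above 0, against 22.4% of all genes. The list had a median log2 ratio of 0.41 and a summed level of 186 and 241 FPKM. The part of Kupffer cells in the level of *Slc40a1* was not tested. The complement gene *C1qa* was at 0.41 [0.27, 0.54] and the scavenger receptor gene *Marco* at 1.59 [0.52, 2.49] on 5 and 17 reads.

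The RNAs of the 4 genes with iron-responsive elements did not share a direction. A 5′ hairpin acts on translation, which RNA levels do not show, and the interval of *Tfrc* held 0. Those with the hairpin in the 5′ UTR were at 0.39 for *Fth1*, 0.12 for *Ftl1* and −0.38 for *Slc40a1*, and *Tfrc*, with it in the 3′ UTR, was at 0.13. *Alas2*, the heme synthesis enzyme of red cell precursors, was at −0.49 [−0.61, −0.37] and is named here for its own 5′ hairpin. Over all measured coding genes that hold the pattern, the median log2 ratio was 0.11 for 28 with it in the 5′ UTR and 0.12 for 98 with it in the 3′ UTR. Beside these stands 0.03 for all genes, noncoding ones included. Genes of iron sensing were at −0.07 [−0.14, −0.01] for *Aco1*, which encodes iron regulatory protein 1, and −0.14 [−0.26, −0.03] for *Ireb2*, which encodes iron regulatory protein 2. *Fbxl5*, which marks the latter for degradation, was at 0.22 [0.05, 0.38].

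Counted over all 10 genes, none was 2-fold higher and none 2-fold lower in S1a/ETP, against 6.42% and 6.25% of the 16042 genes whose FPKM averaged 0.1 or more. At 1.5-fold, 1 gene was higher (*Bmp6*) and 2 were lower (*Hamp* and *Hamp2*), against 13.2% and 11.3% of all genes. Intervals lay above 0 for 4 and below 0 for 5, against 22.4% and 17.5%, and abundant genes reach a narrow interval at smaller differences. The median log2 ratio was −0.09 for the iron genes and 0.03 for all, and with TPM, in which each library sums to the same total, that of the iron genes was −0.02.

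Counting error widens the ratios of low genes, so the counts were also taken among abundant genes. Of the 7 iron genes with mean levels of at least 10 FPKM, 1.5-fold lower values were found for 2 and 1.5-fold higher values for none. Among all 4228 such genes 2.93% were lower and 2.93% higher at that size, and 1.04% and 0.71% passed 2-fold lower and higher. Of the 7, 4 had intervals below 0 and 3 above, where the shares of all such genes were 30.4% and 31.4%. The 2 lower genes were *Hamp* and *Hamp2*, neighboring copies that are not independent of each other.

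**Figure D3:**
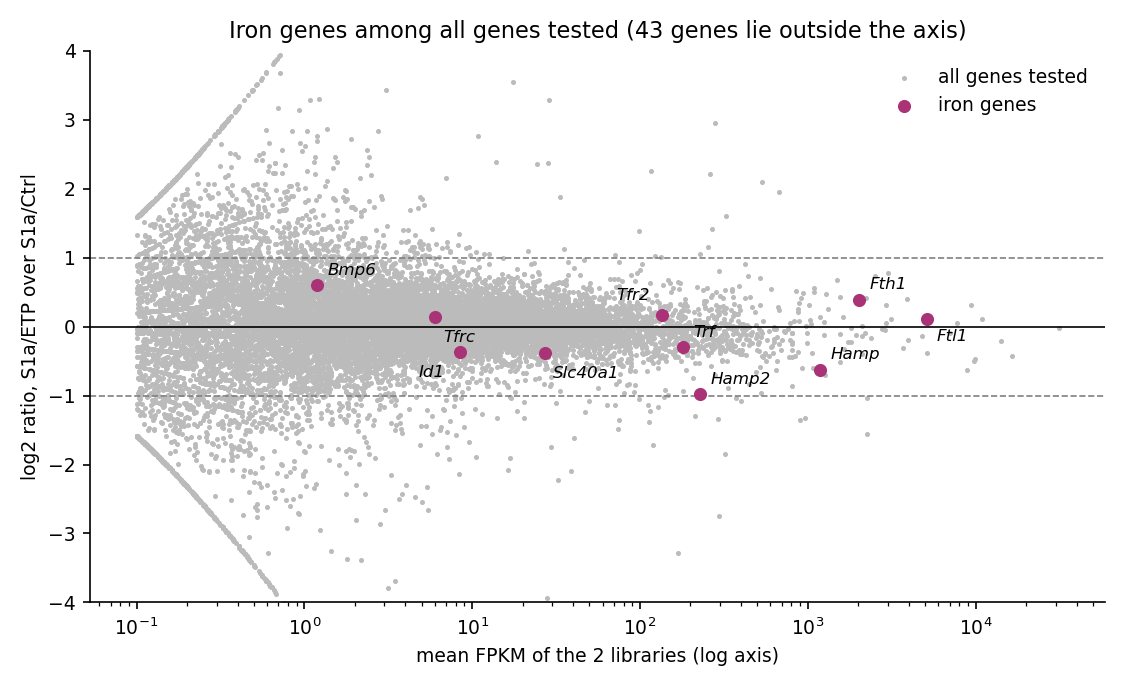
Log2 ratio of S1a/ETP over S1a/Ctrl against mean FPKM on a log axis for all 16042 genes (gray) and the 10 iron genes (purple), with dashed lines at 2-fold and 43 genes outside the vertical axis. At the abundance of *Hamp* and *Hamp2* few genes lie as low, while *Bmp6* sits where the gray cloud is wide.

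Of the wider pathway, 7 lists held 57 genes, of which 53 averaged 0.1 FPKM or more. Past 2-fold, 3 of these were higher and none lower, 18 had an interval above 0 and 4 below, and the median log2 ratio was 0.10. Beside these stand the 6.42% and 6.25% of all genes that were 2-fold higher and lower, the 22.4% and 17.5% with intervals above and below 0, and the median of 0.03. The 3 genes were *Id4*, *Scara5* and *Slc11a1*. *Scara5*, a scavenger receptor that takes up ferritin, had 29 reads, then 90, for a log2 ratio of 1.80 [1.27, 2.33]. *Slc11a1*, the metal transporter of phagosomes in macrophages and neutrophils, was at 2.23 and 5.35 FPKM, which is a log2 ratio of 1.23 [0.90, 1.55]. Genes of macrophages and neutrophils were higher in the same library, as given above, and their part in the level of *Slc11a1* was not tested.

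The uptake list, beside *Tfrc* and *Tfr2*, had 9 of 10 genes measured. Of these, 5 had intervals above 0 and 1 below, against 22.4% and 17.5% of all genes. Their median log2 ratio was 0.47, or 0.23 with a pseudocount of 1 FPKM. *Slc39a14*, the importer of iron not bound to transferrin in hepatocytes, was the most abundant of them and lower, at 41.5 and 36.2 FPKM, which is a log2 ratio of −0.20 [−0.27, −0.13]. *Steap1*, of the metalloreductase family, had no read in either library, which allows up to 0.127 and 0.168 FPKM. Among 5 measured genes of storage and export all were higher in value, as were 8541 of all 16042 genes. Of the 5, 2 had intervals above 0, against 22.4% of all genes. *Cp*, the ferroxidase ceruloplasmin that works with ferroportin and is also an acute phase protein, was at 292 and 418 FPKM, which is a log2 ratio of 0.52 [0.49, 0.54]. *Heph*, its membrane-bound relative, was at 0.40 [−0.22, 1.01] on 28 and 30 reads, and mitochondrial ferritin (*Ftmt*) had none in either library, a limit of 0.107 and 0.142 FPKM.

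Genes that carry iron into mitochondria and build iron-sulfur clusters differed little, with a median log2 ratio of 0.02 over 9 genes. Their intervals spanned 0 for 7, as did those of 9640 of all 16042 genes. *Slc25a28*, which encodes the iron importer mitoferrin 2, was at 14.4 and 20.4 FPKM, which is a log2 ratio of 0.49 [0.30, 0.69]. *Lyrm4*, a partner of the cluster-building desulfurase, was at −0.24 [−0.60, 0.13] and *Glrx5*, a cluster carrier and the most abundant, at −0.03 [−0.11, 0.06].

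**Figure D4:**
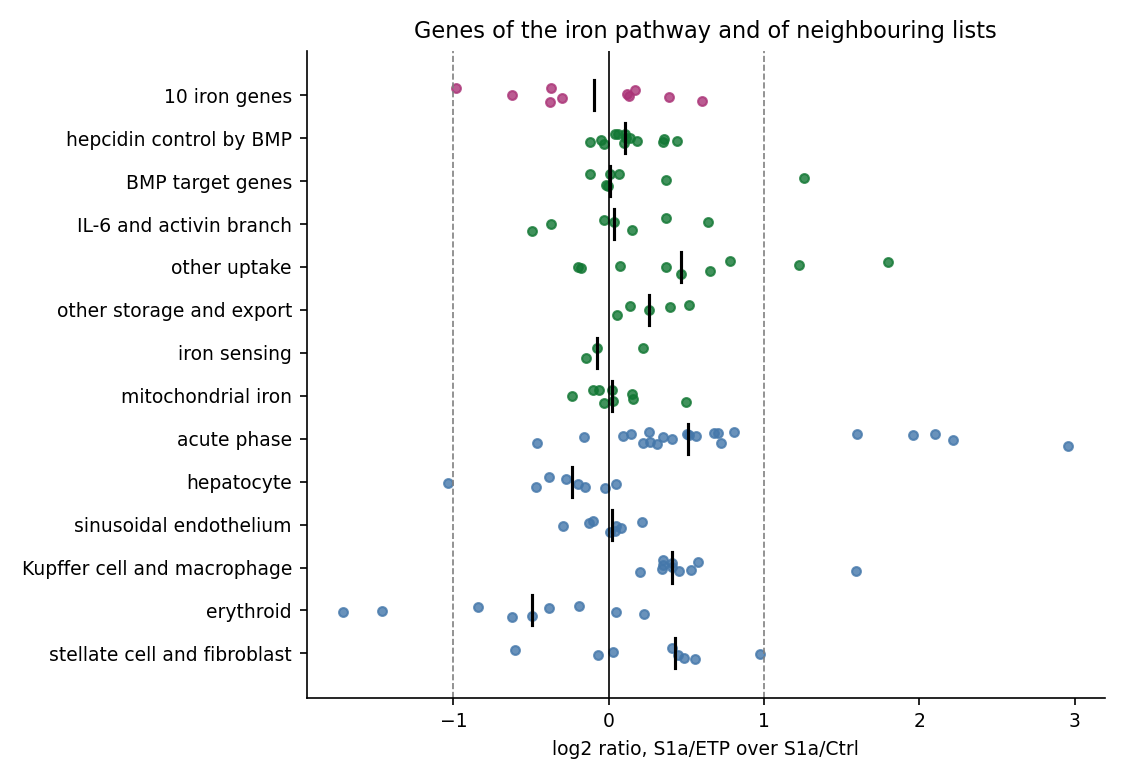
Log2 ratio of S1a/ETP over S1a/Ctrl for each gene with a mean level of at least 0.1 FPKM in the iron genes (purple), 7 wider iron lists (green) and lists of the acute phase and of cell types (blue, without neutrophil, dividing cell and muscle lists), with black bars at list medians and dashed lines at 2-fold. The acute phase list has a median of 0.51 and the erythroid list one of −0.49, and both hepcidin genes, at −0.63 and −0.98, lie left of every acute phase gene.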

How the data were processed

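Liver RNA was sequenced on a NovaSeq by a company, with 1 library per group made from the pooled RNA of 3 mice. The authors deposited 1 table of FPKM values with gene lengths (a column of another unit, in bases) and coordinates. Builds and tools listed by the submitters' processing notes, with no roles, are mm10, GATK 4.1, STAR-Fusion 1.5.0, StringTie 1.3.3b, STAR, edgeR 3.16.5, HTSeq 0.6.1 and DESeq2. Not given in the sources used here are the annotation release, read length, filters and strand setting. Whole reads were recovered from FPKM, gene length and depth. Log2 ratios used a pseudocount of 0.1 FPKM, which understates the change of low genes, and a minimum mean of 0.1 FPKM. The study's 2-fold size was kept, but not its p-value threshold, for which 1 library per group gives no spread.

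The 10 genes and the 16 wider lists were chosen with earlier results of these data known. All genes were matched, 3 of them by ID. The rule for named genes took the 10, each gene of an iron or acute phase list past 2-fold, or else the 2 largest ratios with at least 20 reads, and the most abundant gene. For cell types it took the largest ratio and the most abundant gene. Genes outside it are marked where named, except *Il6*, *Erfe*, *Steap1* and *Ftmt*, with no more than 3 reads, *Alas2*, and rows that overlap or share sequence with the 10. These were also named after their values were seen. Sequences came from RefSeq (GRCm38.p6) and GENCODE M21, in which 5 of the 10 genes have the table's exact start and end. The recovery of reads and the binomial intervals, without the pseudocount, were tested on simulated reads with counting error only. That simulation held no spread between mice and did not cover the lists, motifs or hairpins. Computation used scipy 1.17.1, pandas 2.3.3, numpy 2.4.6, matplotlib 3.10.9 and Python 3.11.15. Alternatives were other pseudocounts, filters, sizes and scalings.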

Additional observations from a re-analysis of the deposited data

How the results depend on the processing

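No library was replicated, so none could be left out. No paired analysis was possible because each group is 1 library. The 10 iron genes kept their direction in all 65 values recomputed with other pseudocounts, scalings or summed copies, and 55 stayed within their counting interval. An equal pseudocount cannot change a direction. The scalings shifted the median ratio by −0.03 to 0.07, less than the smallest ratio of the 10, 0.12 for *Ftl1*. The kept directions were thus largely fixed in advance and do not measure the spread between mice. *Hamp* ranged from −0.69 to −0.55 and *Hamp2* from −1.01 to −0.91. With the median log2 ratio set to 0, a shift of −0.03, 1 gene (*Hamp2*) was 2-fold lower. At the 1.5-fold size 1 was higher and 2 were lower. *Bmp6* ranged from 0.35, with a pseudocount of 1 FPKM, to 0.69. Summing *Ftl1* or *Fth1* with those rows found by name that share 50-base stretches, chosen after seeing the data, gave 0.12 and 0.39. TPM shifted the median of all ratios by 0.07. Of 141 list medians, 138 kept their direction. The other 3 came with the median set to 0 and were −0.02 for BMP targets, −0.01 for mitochondrial iron and −0.01 for sinusoidal endothelium. Medians with no pseudocount were not run for lists with genes at 0 in 1 library. With a pseudocount of 1 FPKM the median was 0.23 for uptake, 0.83 for dividing cell and −0.30 for erythroid genes. Over all genes, 2-fold higher and lower counted 1030 and 1003, against 128 and 169 with a pseudocount of 1 FPKM, 241 and 203 above 1 FPKM, 630 and 469 for coding genes, 2110 and 1820 at 1.5-fold, and 264 and 338 at 4-fold. Low genes such as *Bmp6*, *Id4* and *Erfe* are limited by depth.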
